A study of Mus musculus with 12 samples.

Results

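The 10 genes described here encode the core of the TGF-β pathway: the ligands Tgfb1, Tgfb2 and Tgfb3, the receptors Tgfbr1, Tgfbr2 and Tgfbr3, and the signal transducers Smad2, Smad3, Smad4 and Smad7. They were taken by symbol from the 35976 genes counted in each of 12 RNA-seq libraries. All 10 were present and all 10 passed the filter on low counts, which left 18853 genes for testing. The libraries came from scars on the back skin of male mice, with 3 mice in each of 4 groups. Tem1WT/WT mice (called WT here) kept the endosialin gene Tem1, listed as Cd248, whereas Tem1lacZ/lacZ mice (called lacZ) carried a lacZ reporter in its place. The replacement affected the whole animal from the germ line on, so it cannot separate the cell types that use the gene, and the line had been backcrossed to C57BL/6J. At 8 to 12 weeks of age, all mice received a 1.5 cm wound and, from day 6, a distraction device. In the traction groups the device lengthened the scar by 1 mm a day, to 8 mm in all. Sham mice wore the same device with no lengthening. Cd248 ranged from 92.4 to 337 CPM (counts scaled to library size) in the 6 WT libraries and from 0 to 0.248 CPM in the 6 lacZ libraries, as the genotype labels state.

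TGF-β ligands are secreted in a latent complex and act only after release from it. A released ligand binds TGFBR2, which recruits and phosphorylates TGFBR1, while TGFBR3 (betaglycan) is an accessory receptor that presents ligand, TGF-β2 above all. TGFBR1 phosphorylates SMAD2 and SMAD3, these join SMAD4 to regulate genes in the nucleus, and SMAD7, itself a target gene, inhibits the receptor. In healing skin the pathway is known for turning fibroblasts into contractile myofibroblasts and for raising matrix production. The libraries measured transcripts, so latent ligand, active ligand and SMAD phosphorylation were not measured.

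Library totals ranged from 41536788 to 64644293 assigned counts, and the lowest count of any of the 10 genes in any library was 307, for Smad7. Replicates of 1 group differed far beyond sampling noise in every pair, so no pair was counted as 1 sample. A pair of libraries stood apart in neutrophil or keratinocyte markers and touches many of the values below. WT traction replicate 1 held a summed level of 8 neutrophil marker genes of 6801 CPM, against 609 and 287 CPM in the other WT traction libraries and 62.1 to 530 CPM in the other groups. The defining neutrophil marker Ly6g was at 0 in all 3 WT sham libraries. lacZ traction replicate 1 held 42730 CPM of 8 keratinocyte marker genes, against 11610 to 21660 CPM in all other libraries. The summed level of 8 endothelial markers was 360 to 527 CPM in WT sham, 877 to 1039 in WT traction, 280 to 482 in lacZ sham and 428 to 706 in lacZ traction. The summed level of 8 fibroblast markers lay between 4217 and 7348 CPM in every library. Other tissue markers differed between groups and libraries. The sum of 6 pericyte and smooth muscle markers was 320 CPM in WT traction replicate 1, against 867 and 864 in replicates 2 and 3. For 7 T lymphocyte markers these values were 123, against 30.8 and 24.1. In lacZ traction the sum of 8 macrophage markers was 1296 CPM in replicate 1, against 2536 and 2684 in replicates 2 and 3. The sum of 8 hair follicle markers was 15380 to 28210 CPM in WT sham and 4122 to 7550 in WT traction. It was 3958 to 21200 in lacZ sham and 7856 to 13680 in lacZ traction. The sum of 7 skeletal muscle markers was 800 to 8711 CPM in WT sham and 205 to 1462 in WT traction. That of 8 adipocyte markers reached 5557 CPM in lacZ sham replicate 1. From these same libraries the study named the hair follicle markers Krt25, Krt27, Krt71, Foxn1 and Hoxc13. It also named the endothelial markers Pecam1 and Tie1 and the neutrophil marker Csf3r. Group differences in those sums are therefore not independent evidence. The part of all these cell markers in the results was not tested. In bulk tissue, more RNA of a gene in each cell and more cells that use the gene cannot be told apart.

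Each of the 10 genes reached its highest level in a WT traction library, and for 7 of them that library was WT traction replicate 3. The lowest library belonged to a lacZ group for 9 of the 10, and was lacZ sham replicate 2 for 6. The group mean was highest in WT traction for 9 genes, with Smad2 as the exception, and lowest in lacZ sham for the same number. The spread over the 12 libraries differed widely between the genes. Tgfb1 spanned 11.2-fold between its lowest and highest library, the other ligands spanned 3.92-fold (Tgfb2) and 3.67-fold (Tgfb3), and Tgfbr1 and Smad2 spanned only 1.51-fold and 1.30-fold. Plotted by library, the CPM values show this contrast between the ligands and the flat profiles of Tgfbr1 and Smad2.

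**Figure D1:**
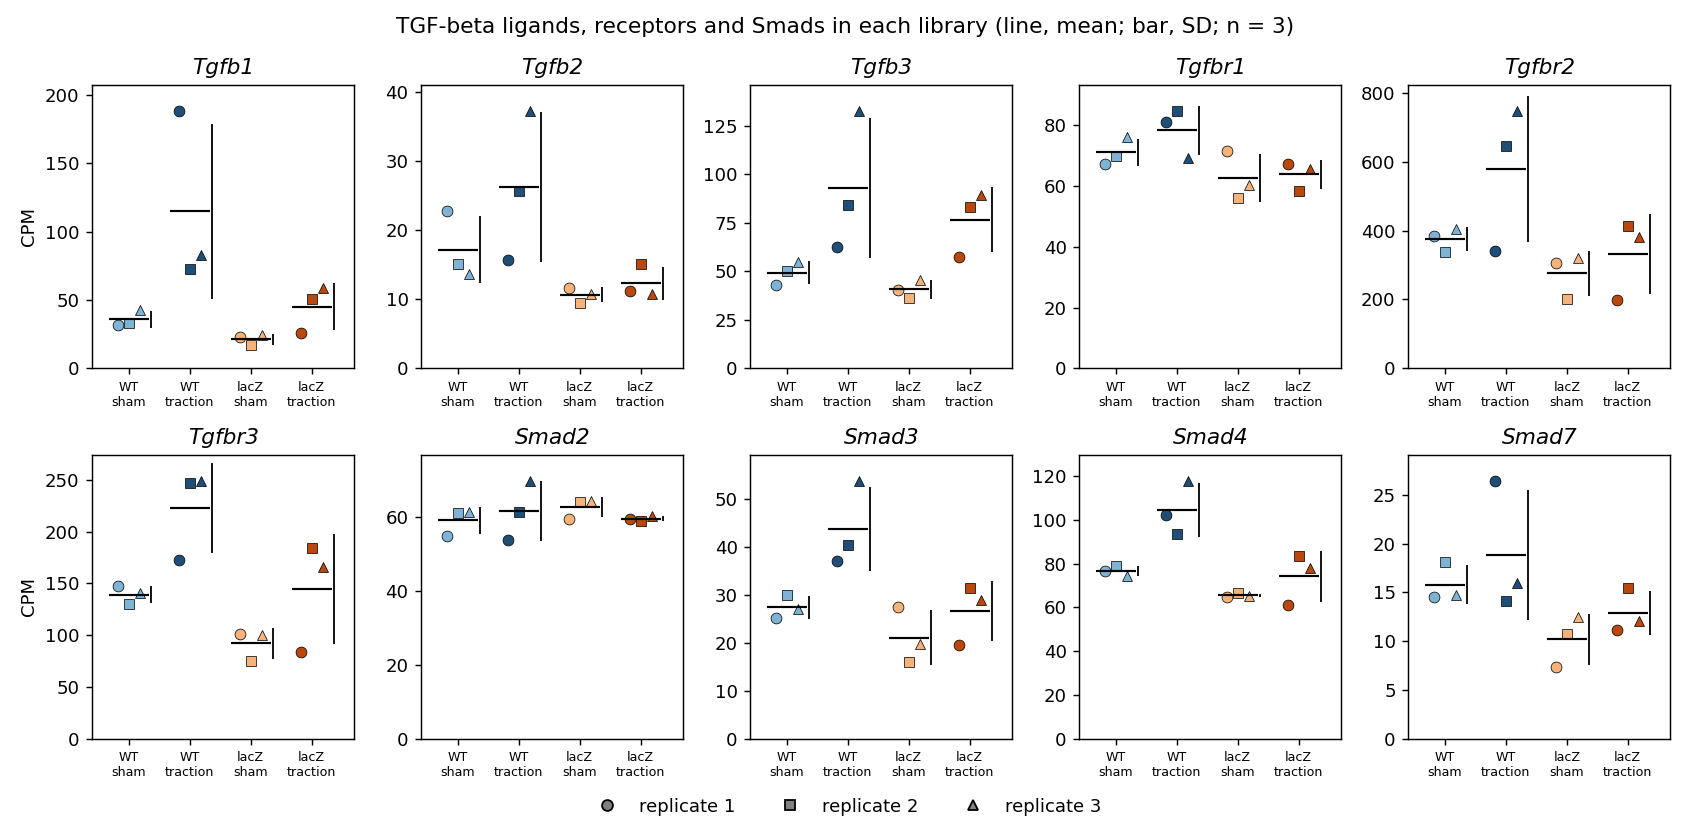
CPM of the 10 genes in each of the 12 libraries, by group; symbols mark the replicate, horizontal lines the group mean and vertical lines the SD (n = 3). Tgfb1 reached 188 CPM in WT traction replicate 1, while Smad2 stayed between 53.8 and 69.9 CPM in all libraries.

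Levels of different genes were compared per kilobase of exon, using the exon length of GENCODE basic transcripts. On that scale Tgfbr2 was the most abundant of the 10 transcripts in every group, with 45.9 ± 4.35 CPM per kb in WT sham, 70.5 ± 25.9 in WT traction, 33.7 ± 7.94 in lacZ sham and 40.5 ± 14.1 in lacZ traction (SD, n = 3). Tgfb2 and Smad7 occupied the last places in every group, with group means of 2.05 to 5.04 and 2.32 to 4.31 CPM per kb, and their libraries overlapped in all 4 groups. In WT sham the order below Tgfbr2 was Tgfbr3 (22.9 CPM per kb), Smad4 (21.4), Tgfb1 (16.5), Tgfb3 (14.6), Tgfbr1 (11.1), Smad2 (6.89) and Smad3 (5.38). Within this order the libraries of Tgfbr3 and Smad4 overlapped, as did those of Tgfb1 and Tgfb3, while the other neighbours down to Smad3 were separated. Tgfb1 held rank 4 of the 10 in WT sham and rank 2 in WT traction, where its level was 52.8 ± 29.4 CPM per kb.

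The 3 ligand transcripts summed to 31.6, 32.9 and 38.5 CPM per kb in the WT sham libraries and to 108, 63.3 and 84.6 in WT traction. In lacZ mice the sums were 24.6, 20.3 and 26.8 with sham and 30.9, 50.8 and 55.5 with traction. Tgfb1 and Tgfb3 made up most of this sum, and Tgfb2 no more than 13.9% in any library. Tgfb1 supplied 45.8% to 51.0% of the ligand sum in WT sham and 38.2% to 42.7% in lacZ sham. In WT traction its share was 80.2% in replicate 1 but 53.0% and 45.2% in the others, so the high share belonged to 1 library. That library also held the high neutrophil markers, and a link between the share and any cell marker was not tested. The receptor sum was dominated by Tgfbr2, which held between 50.1% and 63.8% of it in all 12 libraries. Smad4, the partner common to all receptor Smads, held 56.1% to 59.6% of the Smad sum, a narrow range across genotypes and treatments.

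**Figure D2:**
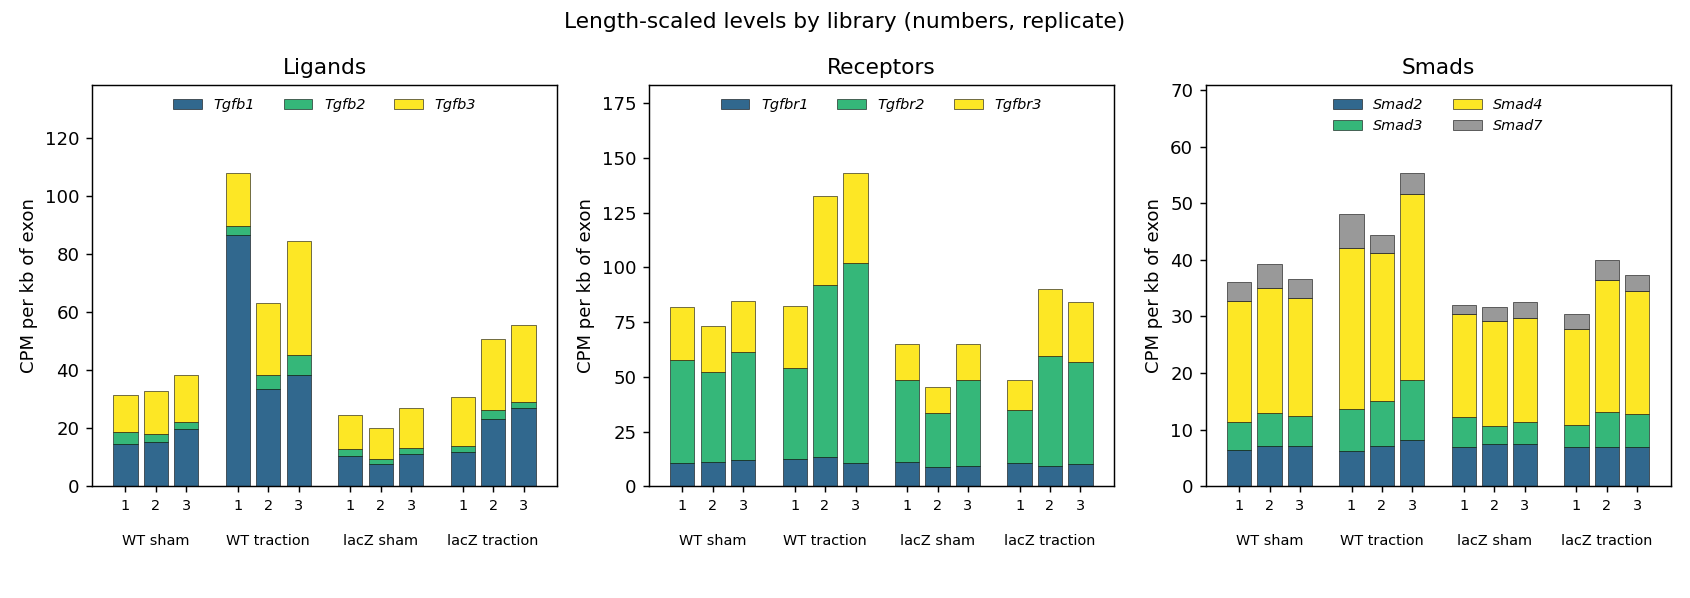
Length-scaled levels (CPM per kb of exon) of the ligands, receptors and Smads in each library, stacked by gene; the numbers on the horizontal axis are replicates. The ligand stack of WT traction replicate 1 is mostly Tgfb1 (80.2%), while the Smad stacks keep nearly the same proportion of Smad4 throughout.

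Traction was compared with sham within each genotype, and lacZ with WT within each treatment, by edgeR's quasi-likelihood test with Benjamini-Hochberg adjustment over all 18853 genes. A gene was called at an adjusted p under 0.05. In WT mice the fitted difference was above 0 for 10 of the 10 genes, with a median log2 fold change of 0.62, against −0.01 over all genes tested. Of these, 1 was called, Tgfb1, where 9.15% of all genes tested were called (5.61% as higher). At an unadjusted p under 0.05 the count was 5 of 10, where 31.4% of all genes passed. DESeq2's Wald test called 4 of the 10, Tgfb1, Tgfb3, Smad3 and Smad4, where it called 21.6% of all genes. The libraries of WT traction lay wholly above those of WT sham for 5 genes (Tgfb1, Tgfb3, Tgfbr3, Smad3 and Smad4), where 17.7% of all genes were separated in that direction. The study named Tgfb1 and Smad4 from these same libraries, so their differences are not independent evidence. In lacZ mice traction gave a positive difference for 9 of 10 genes, with a median of 0.30, and 0 of the 10 were called, where 0% of all genes were. At an unadjusted p under 0.05 the lacZ counts were 3 of 10 members and 8.12% of all genes, DESeq2 called 0 of 10 (0.190% of all genes), and limma-voom called Tgfb1 and Tgfb3 (2.31% of all genes). The lacZ groups were separated for 2 genes, Tgfb1 and Tgfb3, where 6.77% of all genes were separated upward.

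**Figure D3:**
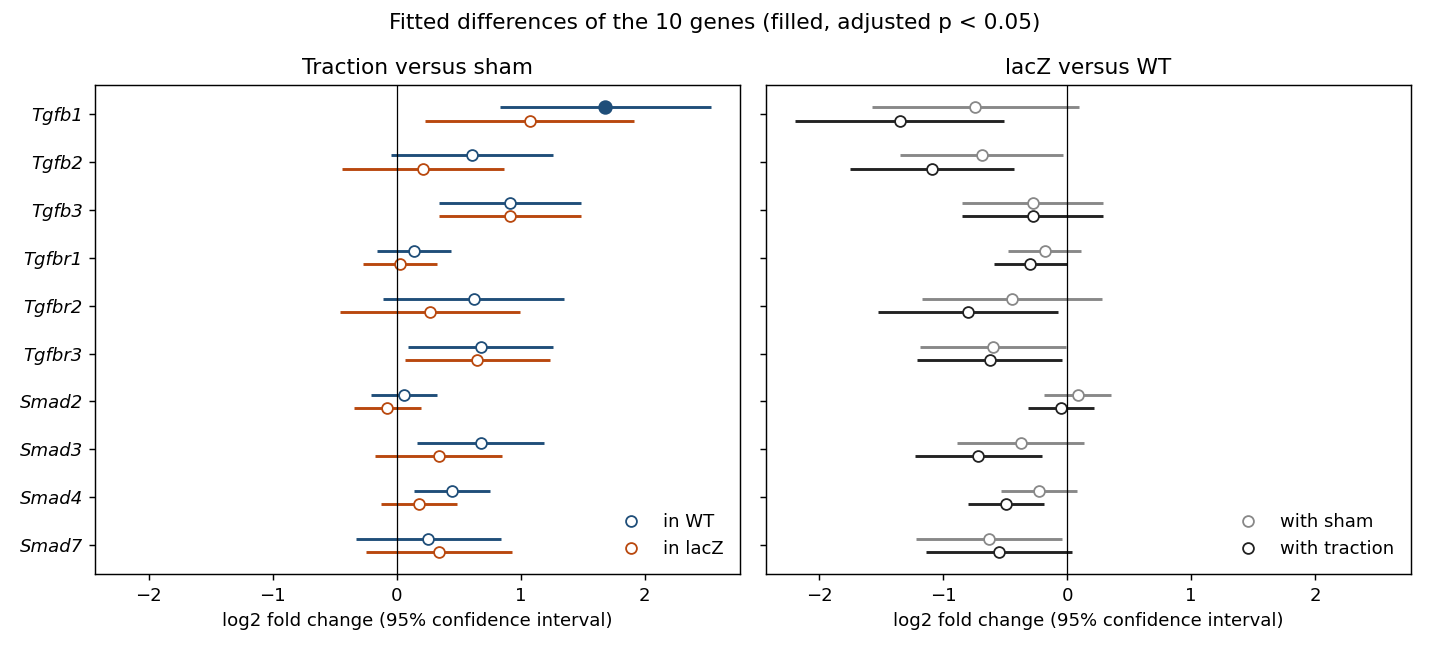
Fitted log2 fold changes of the 10 genes with 95% confidence intervals, for traction versus sham in each genotype (left) and lacZ versus WT under each treatment (right); filled symbols mark an adjusted p under 0.05. Tgfb1 in WT is the only filled symbol, and on the right all differences with traction lie below 0.

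Tgfb1, which encodes the ligand most often linked to wound repair, lies at 25687002 to 25705077 of chromosome 7 (plus strand) (GRCm38). It measured 31.4, 33.2 and 42.7 CPM in WT sham and 188, 72.9 and 83.2 CPM in WT traction. Its lacZ levels were 22.9, 16.8 and 24.5 CPM with sham and 25.6, 50.6 and 58.8 CPM with traction. The groups of each genotype did not overlap, and replicate 1 lay far above its group in WT traction and below it in lacZ traction. Tgfb1 rose 3.21-fold with traction in WT (log2 1.68 ± 0.39 SE, edgeR adjusted p = 0.0334; DESeq2 adjusted p = 0.000751). In lacZ the fitted difference was 1.07 on the log2 scale (± 0.38 SE, edgeR adjusted p = 0.598), with an unadjusted p of 0.0171. Without WT traction replicate 1 the WT difference was 1.11 on the log2 scale (edgeR adjusted p = 0.0676), and the call was likewise lost when any of the 3 WT sham libraries or lacZ sham replicate 3 was left out.

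The window before the Tgfb1 start is printed here because Tgfb1 was the only one of the 10 genes called. RefSeq promoter entries (GRCm38.p6) were matched for 5 of the 10 genes, and the 250 bases before each start were searched on both strands for TGANTCA (AP-1), GTCTAGAC (the palindromic Smad box), GGGCGG (Sp1) and GGAATG (TEAD). In the Tgfb1 window, chr7:25686752-25687001 on the plus strand, capitals mark GGGCGG or its reverse complement.
Tgfb1: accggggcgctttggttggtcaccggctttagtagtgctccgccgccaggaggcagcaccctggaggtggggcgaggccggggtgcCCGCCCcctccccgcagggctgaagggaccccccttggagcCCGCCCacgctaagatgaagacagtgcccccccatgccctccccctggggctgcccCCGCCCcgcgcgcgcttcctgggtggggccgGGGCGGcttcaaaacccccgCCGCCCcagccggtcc
The Sp1 letters matched at 5 places that did not overlap each other, beginning 164, 123, 67, 36 and 16 bases before the start, and the other 3 motifs did not match. Of 32851 promoter windows of this length, 32.7% held the Sp1 letters, 6.75% the AP-1 letters, 0.167% the Smad box and 12.6% the TEAD letters. The window was 75.2% G and C, against a median of 52.4% over all windows. One of the Tgfbr1 windows and the Smad3 window held 2 Sp1 matches each, the other Tgfbr1 window held none, and the Tgfb2 and Tgfbr2 windows held no match to any of the 4 motifs.

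Tgfb3 encodes a ligand best known for its part in closing the palate, and lies at 86056745 to 86079041 of chromosome 12 (minus strand). Its levels were 43.1, 49.9 and 55.0 CPM in WT sham against 62.3, 83.9 and 133 CPM in WT traction. In lacZ mice they were 40.2, 36.1 and 45.7 CPM with sham against 57.4, 83.2 and 89.2 CPM with traction. In both genotypes the traction libraries lay above all sham libraries. The fitted traction difference was 0.91 on the log2 scale in either genotype (SE 0.26 in each), with edgeR adjusted p = 0.0505 in WT and 0.598 in lacZ, so neither was called. The WT difference was called when WT traction replicate 1 was left out (log2 1.11, edgeR adjusted p = 0.0460). The gene models Gm48008 and Gm37804 on the opposite strand cover 7.60% and 4.82% of its exon length, and reads of the strands can be told apart only if the counting used strand, which the sources used here do not give.

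Tgfb2, at 186622792 to 186705989 of chromosome 1 (minus strand), encodes the ligand that relies most on TGFBR3. It measured 22.8, 15.1 and 13.6 CPM in WT sham and 15.6, 25.7 and 37.2 CPM in WT traction, and these groups overlapped. The lacZ libraries held 11.6, 9.51 and 10.8 CPM with sham and 11.2, 15.0 and 10.7 CPM with traction. Under each treatment every lacZ library lay below every WT library, so the genotypes were separated while the treatments were not. The lacZ difference was −0.69 ± 0.30 SE on the log2 scale with sham (edgeR adjusted p = 0.421) and −1.09 ± 0.30 with traction (edgeR adjusted p = 0.0951; DESeq2 adjusted p = 0.0137).

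Among the receptors, Tgfbr2 lies at 116084293 to 116175360 of chromosome 9 (minus strand) and encodes the receptor that first binds ligand. It measured 385, 336 and 406 CPM in WT sham and 340, 644 and 748 CPM in WT traction. In lacZ mice it measured 307, 201 and 319 CPM with sham and 200, 414 and 382 CPM with traction. Replicate 1 was the lowest library in both traction groups, and each traction group overlapped its sham group. The traction difference was 0.62 ± 0.33 SE on the log2 scale in WT (edgeR adjusted p = 0.222) and 0.27 ± 0.33 in lacZ (edgeR adjusted p = 0.835).

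Tgfbr3 encodes the accessory receptor betaglycan, at 107106570 to 107289629 of chromosome 5 (minus strand). Its levels were 147, 130 and 140 CPM in WT sham against 172, 247 and 249 CPM in WT traction. In lacZ mice they were 101, 74.9 and 101 CPM with sham against 83.8, 184 and 166 CPM with traction. The WT groups were separated and the lacZ groups overlapped through lacZ traction replicate 1. The traction difference was 0.68 ± 0.27 SE on the log2 scale in WT (edgeR adjusted p = 0.112) and 0.65 ± 0.27 in lacZ (edgeR adjusted p = 0.598). Without lacZ traction replicate 1 the WT difference was called (0.67, edgeR adjusted p = 0.0404), while the lacZ difference, 0.97, had an edgeR adjusted p of 0.0519. A gene model on the same strand shares 4.88% of its exon length.

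Tgfbr1 encodes the receptor kinase that phosphorylates SMAD2 and SMAD3 and lies at 47353222 to 47414931 of chromosome 4 (plus strand). It changed least among the receptors, with 67.1, 70.0 and 76.0 CPM in WT sham and 80.8, 84.7 and 69.3 CPM in WT traction. In lacZ mice it measured 71.4, 56.1 and 60.3 CPM with sham and 67.3, 58.4 and 65.5 CPM with traction. The 95% interval of the traction difference ran from −0.16 to 0.44 on the log2 scale in WT and from −0.27 to 0.32 in lacZ.

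Of the receptor-regulated Smads, Smad2 and Smad3 gave different profiles. Smad2, at 76241580 to 76310963 of chromosome 18 (plus strand), measured 55.0, 61.1 and 61.5 CPM in WT sham and 53.8, 61.4 and 69.9 CPM in WT traction. Its lacZ levels were 59.6, 64.1 and 64.5 CPM with sham and 59.5, 59.0 and 60.2 CPM with traction. All 4 groups of Smad2 overlapped, and its 95% interval for the traction difference ran from −0.21 to 0.33 on the log2 scale in WT and from −0.34 to 0.19 in lacZ. Its sign in WT turned negative with upper quartile scaling (−0.05). Smad3, at 63646767 to 63757994 of chromosome 9 (minus strand), measured 25.2, 29.9 and 27.1 CPM in WT sham and 37.2, 40.5 and 53.9 CPM in WT traction. The lacZ libraries held 27.4, 16.1 and 19.8 CPM with sham and 19.6, 31.5 and 28.9 CPM with traction. The WT groups of Smad3 were separated and the lacZ groups overlapped. The traction difference of Smad3 was 0.68 ± 0.23 SE on the log2 scale in WT (edgeR adjusted p = 0.0802; DESeq2 adjusted p = 0.0411) and 0.34 ± 0.23 in lacZ (edgeR adjusted p = 0.690).

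Smad4 encodes the partner that receptor-regulated Smads of both the TGF-β and BMP branches need, and lies at 73639009 to 73703780 of chromosome 18 (minus strand). It measured 76.6, 78.9 and 74.4 CPM in WT sham and 102, 93.4 and 118 CPM in WT traction. In lacZ mice it measured 64.6, 66.4 and 65.2 CPM with sham and 61.0, 83.6 and 78.1 CPM with traction. Replicates of both sham groups were close, and every WT traction library lay above all 9 others. The traction difference was 0.45 ± 0.14 SE on the log2 scale in WT (edgeR adjusted p = 0.0643; DESeq2 adjusted p = 0.0170) and 0.18 ± 0.14 in lacZ (edgeR adjusted p = 0.723). The WT difference was called without lacZ traction replicate 1 (0.44, edgeR adjusted p = 0.0351).

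Smad7 encodes the inhibitory Smad and lies at 75367529 to 75395935 of chromosome 18 (plus strand). It measured 14.5, 18.1 and 14.8 CPM in WT sham and 26.5, 14.1 and 16.0 CPM in WT traction. In lacZ mice it measured 7.31, 10.7 and 12.5 CPM with sham and 11.2, 15.4 and 12 CPM with traction. In WT, replicate 1 was the only traction library above all sham libraries, and in lacZ replicate 2 was. The WT traction difference of 0.26 ± 0.27 SE on the log2 scale became −0.09 without that library (edgeR adjusted p = 0.845).

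**Figure D4:**
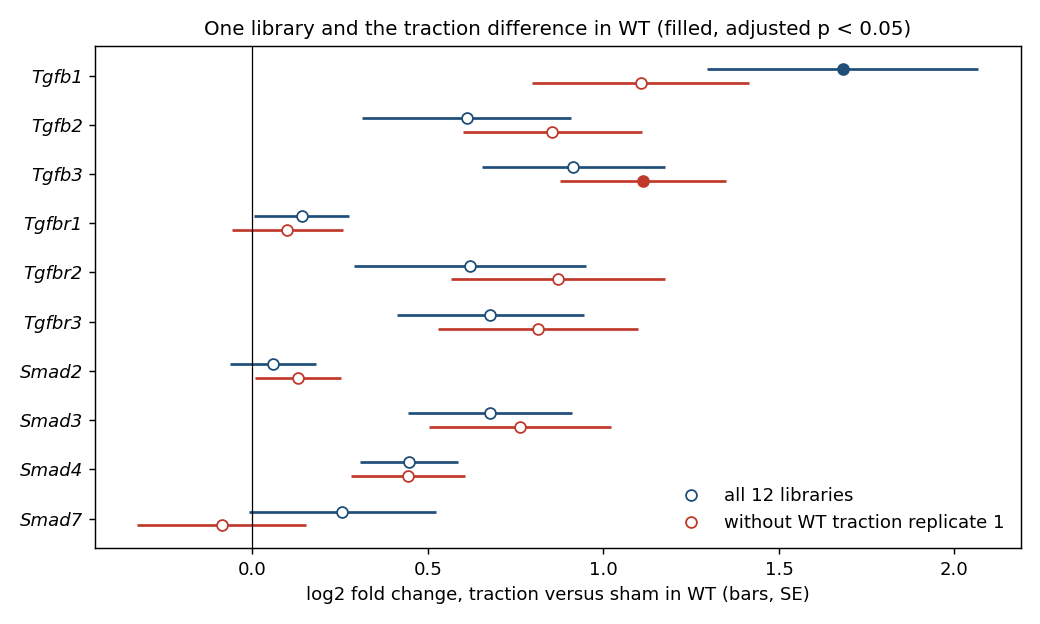
Log2 fold changes for traction versus sham in WT, with SE, from all 12 libraries and after leaving out WT traction replicate 1; filled symbols mark an adjusted p under 0.05. Tgfb1 and Smad7 lay lower without that library (1.11 and −0.09), while Tgfb2, Tgfb3 and Tgfbr2 lay higher.

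Between genotypes, 9 of the 10 genes had lower fitted values in lacZ under both treatments, and Smad2 differed in sign between them. With sham, 9 of the 10 differences were below 0 (median −0.41 on the log2 scale, against −0.01 over all genes) and Smad2 was the exception at 0.08. By edgeR 0 of the 10 were called, where 0.0106% of all genes were called, and 3 of 10 had an unadjusted p under 0.05 (Tgfb2, Tgfbr3 and Smad7), where 11.7% of all genes did. DESeq2 and limma-voom also called 0 of the 10 with sham, where DESeq2 called 0.307% of all genes and limma-voom only 1 gene. All lacZ sham libraries lay below all WT sham libraries for 6 genes (Tgfb1, Tgfb2, Tgfbr2, Tgfbr3, Smad4 and Smad7), where 13.8% of all genes were separated downward. Tgfb1 differed by −0.74 ± 0.38 SE on the log2 scale with sham, and Smad7 by −0.63 ± 0.27.

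With traction, 10 of the 10 differences between lacZ and WT were below 0, with a median of −0.59 on the log2 scale, against 0.01 over all genes. By edgeR 0 of the 10 were called, where 0.106% of all genes were called, and 7 of 10 had an unadjusted p under 0.05, where 26.1% of all genes did. DESeq2 called 4 of the 10 (Tgfb1, Tgfb2, Smad3 and Smad4), where it called 13.2% of all genes. By limma-voom 0 of the 10 were called, where it called only 16 of the 18853 genes. The groups were separated for 5 genes (Tgfb1, Tgfb2, Tgfbr1, Smad3 and Smad4), where 13.7% of all genes were separated downward. Tgfb1 was 0.392 times its WT level (log2 −1.35 ± 0.38 SE, edgeR adjusted p = 0.0952; DESeq2 adjusted p = 0.0144). Without WT traction replicate 1 that difference was −0.75, and without lacZ traction replicate 1 it was −1.04. Smad4 differed by −0.49 ± 0.14 SE (edgeR adjusted p = 0.0952; DESeq2 adjusted p = 0.0160) and Smad3 by −0.72 ± 0.23 (edgeR adjusted p = 0.110; DESeq2 adjusted p = 0.0448). Tgfbr2 differed by −0.80 ± 0.33 SE (edgeR adjusted p = 0.161) and Tgfb3 by −0.28 ± 0.26 (edgeR adjusted p = 0.509). Leaving out lacZ traction replicate 1 moved Tgfbr2 to −0.50 and Tgfbr3 from −0.62 to −0.31.

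Whether traction acted differently in the genotypes was tested by the interaction term. It was called for 0 of the 10 genes by edgeR, DESeq2 and limma-voom, where edgeR and limma-voom called 0% of all genes and DESeq2 0.368%. At an unadjusted p under 0.05 the count was 0 of 10, where 8.91% of all genes passed. The lowest edgeR adjusted p among the 10 was 0.676, for Smad4, whose traction difference was smaller in lacZ than in WT by 0.26 on the log2 scale (95% interval −0.70 to 0.17). For Tgfb1 the lacZ difference was smaller by 0.61 (interval −1.79 to 0.57), and without WT traction replicate 1 it was 0.00. For Tgfb3 the interaction was −0.00 (interval −0.81 to 0.80) and for Tgfbr3 −0.03 (interval −0.85 to 0.80). The intervals of Tgfb3, Tgfbr2, Tgfbr3 and Smad7 span more than 1.5-fold in either direction. Those of Tgfb1, Tgfb2, Smad3 and Smad4 span more than 1.5-fold downward. With 3 mice a group, an interaction of that size is thus not excluded for these genes.

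Averages over the other factor, a choice made after the data were seen, use all 12 libraries for each question. Traction averaged over both genotypes was called for Tgfb1 (2.60-fold, log2 1.38 ± 0.27 SE, edgeR adjusted p = 0.0246), Tgfb3 (1.88-fold, log2 0.91 ± 0.18, edgeR adjusted p = 0.0249) and Tgfbr3 (1.58-fold, log2 0.66 ± 0.19, edgeR adjusted p = 0.0492). That is 3 of 10, where 6.50% of all genes were called as higher. All 3 calls were also made without WT traction replicate 1, where Tgfb1 rose by 1.11, Tgfb3 by 1.03 and Tgfbr3 by 0.75 on the log2 scale. Without lacZ traction replicate 1 the number called was 5, with Smad3 and Smad4 added, while the count over all genes went from 1835 to 3422. It was 0 without WT sham replicate 1 or 2, lacZ sham replicate 2, or lacZ traction replicate 2 or 3, and without those libraries at most 185 of all genes were called. Genotype averaged over both treatments was called by edgeR for 0 of the 10, where 0.0530% of all genes were called, although 8 of 10 had an unadjusted p under 0.05, where 28.4% of all genes did. DESeq2 called 6 of the 10 for that average, where it called 18.1% of all genes. DESeq2's adjusted p, with edgeR's log2 fold change in brackets, was 0.00602 for Tgfb1 (−1.05), 0.00358 for Tgfb2 (−0.89) and 0.0104 for Smad4 (−0.36). It was 0.0228 for Tgfbr3 (−0.61), 0.0248 for Smad3 (−0.55) and 0.0299 for Smad7 (−0.59).

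Around the 10 genes, 55 further pathway genes in 5 lists were followed, and all were found and tested. With traction in WT, 41 of the 55 differences were above 0 and 14 below. By edgeR 16 were called higher and 0 lower, where 5.61% of all genes were called higher and 668 genes lower. Without WT traction replicate 1, 5 of the 55 were called, while calls over all genes went from 1725 of 18853 to 360 of 19388. Among 12 genes of latency and activation, 8 differences were above 0 and 4 below, and 5 genes were called, all higher. The lowest was the integrin gene Itgb8, named after its value was seen, at −1.23 on the log2 scale (edgeR adjusted p = 0.0536; DESeq2 adjusted p = 0.0110). Its WT groups were separated. Thbs1, whose product thrombospondin-1 releases the ligand from its latent complex, rose most (log2 2.93, edgeR adjusted p = 0.0252) and measured 189, 204 and 234 CPM in WT sham and 2905, 973 and 891 CPM in WT traction. Furin, the protease that cleaves the ligand precursors, rose by 1.72 on the log2 scale and Mmp14, which encodes a membrane-bound protease, by 1.33. The other called genes, named after their values were seen, were Lrrc32, which tethers latent TGF-β to the cell surface (1.23), and the integrin gene Itgb5 (1.05). Furin, like Tgfb1, was highest in WT traction replicate 1, at 482 CPM against 155 and 212 CPM. Without that library Thbs1 (2.14), Mmp14 (1.36) and Itgb5 (1.23) were still called, while Furin (1.08, edgeR adjusted p = 0.0525) and Lrrc32 (1.24, edgeR adjusted p = 0.0528) were not. Among 8 receptor modulators, the endothelial co-receptor gene Eng (1.47), Acvrl1 (1.04) and Vasn (0.79) rose, and the endothelial marker sum was also higher in WT traction than in WT sham. None of these 3 was called without WT traction replicate 1, where the edgeR adjusted p was 0.0554 for Eng, 0.123 for Acvrl1 and 0.0761 for Vasn. Of 12 Smad regulators and 3 BMP-branch Smads, 0 were called.

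Among 20 target genes 8 were called higher and 0 lower in WT with traction, where 5.61% of all genes were called higher. Ccn2 (listed as Ctgf), which encodes connective tissue growth factor, measured 79.3, 65.5 and 73.8 CPM in WT sham and 104, 130 and 158 CPM in WT traction (log2 0.84 ± 0.22 SE, edgeR adjusted p = 0.0428). In lacZ mice Ccn2 measured 51.7, 79.4 and 97.0 CPM with sham and 54.0, 46.3 and 51.6 CPM with traction. Its WT groups were separated and its lacZ groups overlapped. Among the other called targets, Timp1, which encodes an inhibitor of metalloproteinases, rose by 3.01 and Ltbp2, which encodes a matrix protein, by 2.76 on the log2 scale. Without WT traction replicate 1 neither was called, at 1.97 for Timp1 (edgeR adjusted p = 0.0844) and 1.42 for Ltbp2 (edgeR adjusted p = 0.126). Ccn2 was then 0.96 (edgeR adjusted p = 0.0516).

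In lacZ mice 0 of the 55 were called by edgeR with traction, where 0% of all genes were called. The median over the 20 targets was 0.14 on the log2 scale, against 1.21 in WT and −0.01 over all genes in either genotype. The 20 include Col1a1, Col1a2, Col3a1 and Lox, which the study named from these same libraries. These medians are therefore not independent evidence. The interaction was called by edgeR for 0 of the 55, where 0% of all genes were called. DESeq2 called it for 3 of the 55, where it called 0.368% of all genes. Among the 3 were Ccn2 (edgeR log2 −1.43, DESeq2 adjusted p = 0.0217) and Il11 (edgeR log2 −3.51, DESeq2 adjusted p = 0.0389), a target named after its values were seen. By edgeR the adjusted p was 0.548 for Ccn2 and for Il11. With traction, Ccn2 differed in lacZ by −1.37 on the log2 scale (edgeR adjusted p = 0.0574).

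**Figure D5:**
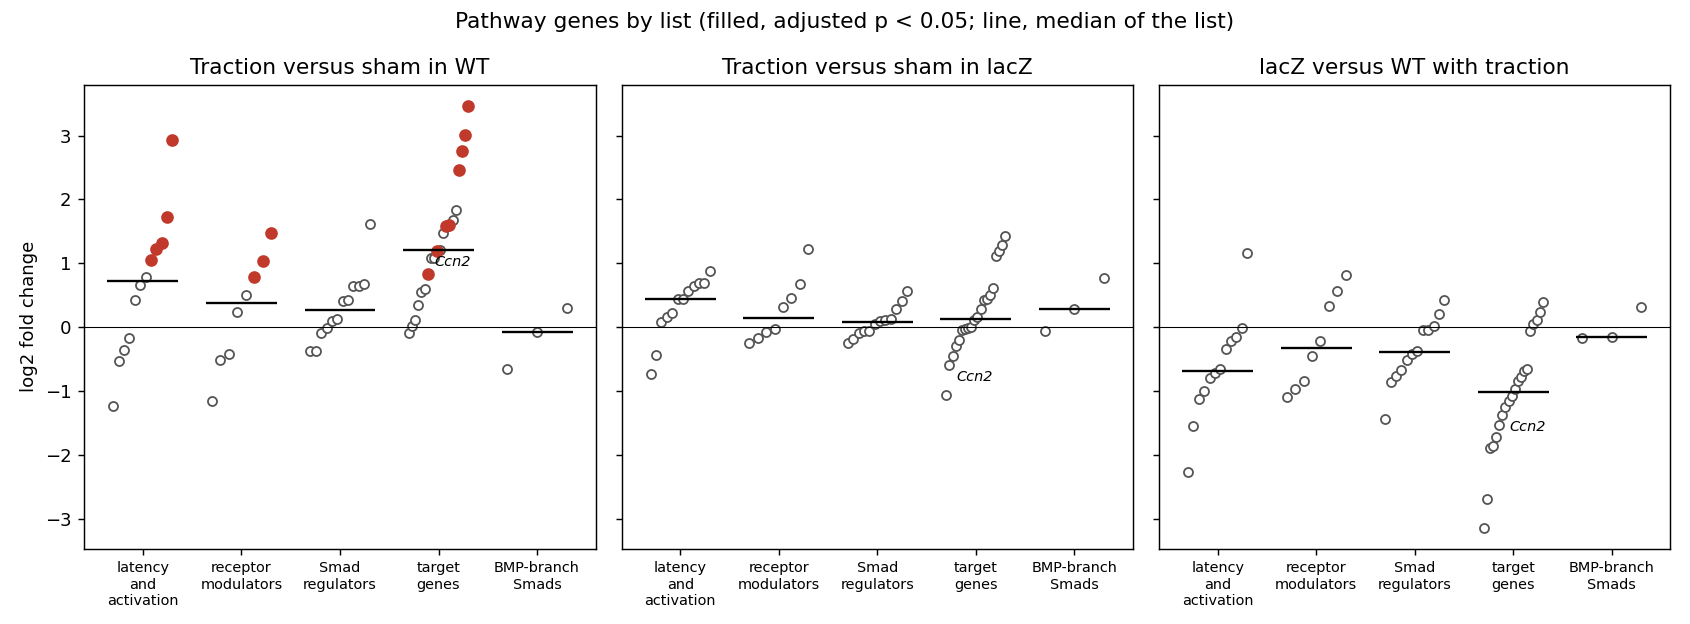
Log2 fold changes of the 55 pathway genes by list for 3 comparisons; points are genes, lines the list medians, and filled points have an adjusted p under 0.05. In WT 16 genes are filled, all above 0, and in the other panels 0 are filled.

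Over the 12 libraries, the genes whose log2 CPM followed each of the 10 most closely were found among 13645 genes, with Pearson's r as the measure and as a description only, since the libraries share groups. Tgfb1 was closest to Sh3bp2 (r = 0.992), Efhd2 (0.989) and Inpp5d (0.989), of which Inpp5d is known as a phosphatase of blood cells. Tgfb3 was closest to Pth1r (0.976) and Tgfb2 to Spg20 (0.961). Tgfbr2 was closest to Ulk2 (0.975), Tgfbr3 to Sash1 (0.982) and Tgfbr1 to Spag9 (0.887). Smad3 was closest to Bcorl1 (0.989), Smad7 to Mical1 (0.924) and Smad2 to Tuba1a (0.916). Smad4 was close to Dpp9 (0.982). Among the 10 themselves, Tgfbr2 and Tgfbr3 followed each other most closely, with r = 0.935 over the 12 libraries and 0.938 after each group's mean was removed. Tgfb1 and Tgfb3 gave r = 0.689 over the libraries but 0.01 within groups, since Tgfb1 was highest in WT traction replicate 1 and Tgfb3 in WT traction replicate 3.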

How the data were processed

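RNA-seq gene counts were deposited as whole-number counts per gene symbol, 1 file for each mouse. The authors trimmed reads with fastp 0.20.0, aligned them to GRCm38 with HISAT2 2.1.0 and counted them with featureCounts 2.0.0, from stranded mRNA libraries. The annotation, the strand setting and the treatment of reads with several positions are not given in the sources used here.

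From these counts, 1 model over the 4 groups (3 libraries each, 8 residual degrees of freedom) was fitted with edgeR 4.0.16 in R 4.3.3 (filterByExpr, TMM scaling, robust quasi-likelihood). It tested the 4 comparisons and the interaction, with Benjamini-Hochberg adjustment over 18853 genes. CPM were scaled by TMM, and log2 CPM used a prior count of 2. DESeq2 1.42.0, limma-voom (limma 3.58.1) and the other settings below were alternatives. The biological coefficient of variation was 34.2%. In simulated data on 18493 genes, the WT traction test recovered 19.0% of 2-fold, 76.5% of 4-fold and 94.6% of 8-fold changes, with 3 false calls, and the interaction test 5.17%, 52.9% and 86.5%, with 7. The rule for named genes took all 10 genes, Ccn2, up to 3 of the largest called rises and falls of each pathway list, and up to 3 genes closest to each of the 10 by correlation; genes it took that are not named are not reported here. The genes and lists were chosen with earlier results of these data known. Coordinates are from GENCODE vM21. Same-numbered libraries of different groups were correlated, which does not settle whether the numbers pair the mice.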

Additional observations from a re-analysis of the deposited data

How the results depend on the processing

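Of the single-gene values under the alternatives, 884 kept their sign and side of the threshold, 32 turned sign, 18 gained and 6 lost the call (DESeq2 size factors, upper quartile scaling, no filter on low counts, DESeq2, limma-voom, the replicate block, only the 6 libraries compared, and each library left out). In WT the number of the 10 called with traction was 1. It was 2 with DESeq2 size factors, 4 with DESeq2, 2 with the replicate block (Tgfb1 at 0.0433 and Tgfb3 at 0.0336), 0 with only the 6 libraries, 3 for traction averaged over genotypes, and 0 to 4 with a library left out. The number of the 55 pathway genes was 16. It was 26 with DESeq2, 10 with limma-voom, 0 with only the 6 libraries, and 0 (without WT sham replicate 1 or 2) to 22 with a library left out. Over all genes 1725 were called, against 1011 without a filter, 4047 with DESeq2, 748 with limma-voom, 0 with only the 6 libraries, and 0 to 2861 with a library left out. The filter-free and 6-library settings change the genes or samples tested, and other causes were not tested.

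In lacZ, traction calls were 0 of the 10, 0 of the 55 and 0 of all genes. With limma-voom they were 2, 6 and 435, with DESeq2 28 of all genes, and with a library left out 0 to 1 of the 55 and 0 to 73 of all genes, the higher ends without lacZ traction replicate 1. For lacZ versus WT with sham, 2 genes were called in all, 43 with DESeq2, 1 with limma-voom, 1 with only the 6 libraries, and 1 to 2 with a library left out. For lacZ versus WT with traction, calls were 0 of the 10 (4 with DESeq2), 0 of the 55 (1 with DESeq2 size factors, 1 without a filter, 19 with DESeq2) and 20 of all genes (2334 with DESeq2, 0 with only the 6 libraries, 10 for genotype averaged over treatments). With a library left out these were 0 to 1, 0 to 15 and 3 to 1421, the higher ends without WT traction replicate 2. The interaction was called for 3 of the 55 and 69 of all genes with DESeq2, and for 0 to 31 of all genes with a library left out.

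None of the differences that turned sign was called. With upper quartile scaling, which moves the median of all genes by −0.12 in WT traction and 0.14 in lacZ versus WT with traction, Smad2 was −0.0496 in WT traction and 0.0789 in lacZ versus WT with traction, Tgfbr1 −0.00898 in lacZ traction, and the interactions of Tgfb3 and Tgfbr3 0.0641 and 0.0391. Without a filter those interactions were 0.0555 and 0.0265, with limma-voom 0.137 and 0.00809, and that of Tgfb3 was 0.0224 with the replicate block. With a library left out, Smad2 ranged from −0.0345 to 0.130 and Smad7 from −0.0873 to 0.439 in WT traction, Tgfbr1 from −0.0220 to 0.169 in lacZ traction, and Tgfb3 from −0.460 to 0.0810 and Smad2 from −0.107 to 0.0571 in lacZ versus WT with traction. The interactions ranged likewise from −0.862 to 0.00384 for Tgfb1, −0.164 to 0.377 for Tgfb3, −0.170 to 0.0356 for Tgfbr1, −0.242 to 0.303 for Tgfbr3 and −0.101 to 0.464 for Smad7. The replicate block changed no call of the 10 other than Tgfb3 in WT traction. Same-numbered libraries correlated between −0.32 and 0.25 in their deviations from the group means. Without differently numbered pairs as a reference, these values cannot show whether the numbers pair the mice.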
